A study of Mus musculus with 3 samples.

Results

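Transcripts of the plasminogen system and of the tissue inhibitors of metalloproteases were followed across Fbw7 KO ductal cells, Fbw7 WT ductal cells and beta cells of the mouse pancreas. The group was a list of 8 gene symbols (Serpinb2, Serpine2, Plau, Plaur, Plat, Timp1, Timp2 and Timp3), each measured by the probe set assigned to that gene alone, and the highest on average where a gene had several. Of the 8 genes, 7 had such a probe set, 1 each, among 19938 genes with at least 1. Serpine2 was not matched to a probe set of its own and was not analysed here. The genes were chosen with their levels on these arrays known, so what follows is a description of them and no test was made.

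Plasminogen is a circulating zymogen that is cut to plasmin by 2 activators, the urokinase type (Plau) and the tissue type (Plat). Plaur is the cell surface receptor that holds urokinase, and the serpin Serpinb2, plasminogen activator inhibitor 2, blocks the activators. Plasmin degrades fibrin and matrix and can activate matrix metalloproteases, which the secreted inhibitors Timp1, Timp2 and Timp3 block in turn. Timp2 also takes part with Mmp14 in activating pro-Mmp2 at the cell surface, and Timp3 is held in the extracellular matrix.

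Each group was 1 array hybridized with RNA from pooled, flow-sorted cells of adult C57BL/6 mice over 6 weeks old. Fbw7 KO ductal cells came from 6 mice of the genotype Fbw7 F/F with Ck19-CreERT and R26-LSL-YFP. Fbw7 WT ductal cells came from 6 mice that were Fbw7 +/+ and carried the same Cre and reporter. Both ductal groups were given tamoxifen on 5 days and were collected 7 days after the last dose, and cells with yellow fluorescence were sorted. Beta cells came from 3 untreated Fbw7 +/+ mice with MIP-GFP, an insulin promoter reporter, so cell type, reporter and tamoxifen all differ at once between the beta cell array and the ductal ones, and their effects cannot be told apart. The Cre driver is the promoter of the keratin 19 gene, and recombination is limited to cells that use it. For every array 30000 cells were sorted and 18 ng of RNA was amplified. With 1 array a group there is no replicate, and the number of arrays limits the precision of every value below.

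Levels are log2 intensities after RMA, and a level above the median of the probe sets assigned to 1 gene on its array (log2 5.24 in KO ductal, 5.23 in WT ductal and 5.30 in beta cells) is called above the floor. The targeted gene, Fbxw7, read 4.95 on all 3 arrays with 1 of its probe sets, below the floor, and 5.71 in KO ductal, 6.32 in WT ductal and 7.00 in beta cells with the other. The labels do not say whether either probe set lies in the deleted part, so the deletion cannot be judged from them. The ductal arrays held strong signal of mesothelial markers: all 15 listed markers were above the floor on both, with a median of 10.06 in KO ductal and 10.05 in WT ductal cells, against 5.43 in beta cells. The 13 measured ductal markers had a median of 8.79 in KO ductal, 6.55 in WT ductal and 6.51 in beta cells. Among them, Cftr was below the floor on both ductal arrays, and Pigr and Prom1 in WT ductal cells. Between WT ductal and beta cells, 11 ductal markers were above the floor. Of these, 6 had a positive and 4 a negative difference and 1 was identical. At least 2-fold higher in WT ductal cells were 5 of the 11, where 25.8% of all genes were. Of 12 beta cell markers, 9 were above the floor on the beta cell array, but Pdx1, Pcsk1 and G6pc2 were not. Among the 9, Mafa read 5.49 on all 3 arrays, and Slc2a2 read 6.90 in KO ductal and 6.05 in beta cells. Acinar markers had a median of 11.79 in beta cells, 10.90 in KO ductal and 8.79 in WT ductal cells. On the beta cell array 9 of 12 leukocyte and 9 of 10 endothelial markers were above the floor, against 4 of each on either ductal array.

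The upstream regions of the genes are shown first because 6 of the 7 genes stood lower in KO than in WT ductal cells while Timp3 did not. RefSeq (GRCm38.p6) gave promoter sequences for 5 of the measured genes. The 250 bases before the transcript start are printed in the direction of transcription, for Serpinb2 before the more upstream of its annotated starts. Capitals mark exact matches, on either strand, to TGACTCA (the AP-1 element), TATAAA (the TATA box) or GGGCGG (the GC box).

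Plaur (chr7:24462233-24462482, plus strand): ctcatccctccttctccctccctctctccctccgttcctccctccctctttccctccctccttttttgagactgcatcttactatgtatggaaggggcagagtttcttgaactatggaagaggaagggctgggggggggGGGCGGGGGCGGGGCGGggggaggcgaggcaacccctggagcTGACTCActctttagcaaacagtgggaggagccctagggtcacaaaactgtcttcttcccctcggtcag

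Serpinb2 (chr1:107511173-107511422, plus strand): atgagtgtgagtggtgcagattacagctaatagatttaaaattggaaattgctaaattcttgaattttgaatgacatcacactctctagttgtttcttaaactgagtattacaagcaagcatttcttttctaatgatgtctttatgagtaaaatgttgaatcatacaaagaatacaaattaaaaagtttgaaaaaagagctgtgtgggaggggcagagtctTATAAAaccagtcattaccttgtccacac

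Timp1 (chrX:20869916-20870165, plus strand): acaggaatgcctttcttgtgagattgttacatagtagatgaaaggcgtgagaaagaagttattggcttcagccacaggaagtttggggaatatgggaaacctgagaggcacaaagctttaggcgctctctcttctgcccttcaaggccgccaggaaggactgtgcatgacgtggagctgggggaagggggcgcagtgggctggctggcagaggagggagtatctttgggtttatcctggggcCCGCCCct

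Timp2 (chr11:118355412-118355661, minus strand): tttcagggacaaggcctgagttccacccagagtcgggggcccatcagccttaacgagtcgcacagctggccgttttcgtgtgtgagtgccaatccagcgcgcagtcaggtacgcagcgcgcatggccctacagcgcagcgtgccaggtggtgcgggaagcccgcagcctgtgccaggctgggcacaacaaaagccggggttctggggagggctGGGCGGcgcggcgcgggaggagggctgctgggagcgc

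Timp3 (chr10:86300162-86300411, plus strand): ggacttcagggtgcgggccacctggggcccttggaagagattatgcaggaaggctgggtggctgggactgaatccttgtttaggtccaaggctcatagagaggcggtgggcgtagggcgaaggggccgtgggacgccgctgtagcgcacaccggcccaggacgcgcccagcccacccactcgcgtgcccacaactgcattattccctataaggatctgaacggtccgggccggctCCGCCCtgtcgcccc

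Plaur held the AP-1 letters once, starting 69 bases before its transcript start, and 3 GC boxes, of which the second and the third share a base. TGACTCA was found in 4.46% of all 32851 promoter windows of that length. Serpinb2 held TATAAA 29 bases before its start, as 12.4% of windows do somewhere, and held neither of the other motifs. Timp1, Timp2 and Timp3 each had 1 GC box, starting 8, 37 and 15 bases before their starts, and 32.7% of windows had at least 1. These letters do not separate Timp3 from Timp1 and Timp2, and a match is not evidence of a bound factor.

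The plasminogen activators read highest in WT ductal cells. Plau (gene ID 18792, chromosome 14) read 7.32 in KO ductal, 8.24 in WT ductal and 6.74 in beta cells, above the floor on all 3 arrays. It was 1.90-fold lower in KO than in WT ductal cells, a log2 difference of -0.93 that lies just short of 2-fold, and its differences from beta cells were 0.58 in KO ductal and 1.51 in WT ductal cells. Plat (gene ID 18791, chromosome 8) read 6.81 in KO ductal, 7.91 in WT ductal and 5.84 in beta cells. It was 2.14-fold lower in KO than in WT ductal cells, and 1.96-fold and 4.19-fold higher in KO and WT ductal cells than in beta cells. Both activators kept 1 order on the arrays: WT ductal, then KO ductal, then beta cells. After quantile normalization of the 3 arrays Plat was at -0.86 between the ductal arrays, short of 2-fold, and Plau in KO ductal cells was at -0.12 relative to beta cells.

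The receptor gene Plaur (gene ID 18793, chromosome 7) varied least of the group. It read 6.28 in KO ductal, 7.02 in WT ductal and 6.42 in beta cells. It was 1.67-fold lower in KO than in WT ductal cells, its log2 difference from beta cells was -0.13 in KO ductal cells, and it was 1.52-fold higher in WT ductal than in beta cells. Its side relative to beta cells moved with the scaling: the difference in KO ductal cells was 0.04 with each array centred on its median, and the difference in WT ductal cells was -0.02 after quantile normalization.

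Serpinb2 (gene ID 18788, chromosome 1), the inhibitor of both activators, had the most negative difference of the group between the ductal arrays. It read 9.38 in KO ductal, 11.07 in WT ductal and 4.57 in beta cells, where it was below the floor. It was 3.23-fold lower in KO than in WT ductal cells, a log2 difference of -1.69, and 32 of 10035 genes had a more negative one. Taken against the floor of the beta cell array, it was at least 16.9-fold higher in KO ductal and at least 54.6-fold higher in WT ductal cells than in beta cells.

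**Figure D1:**
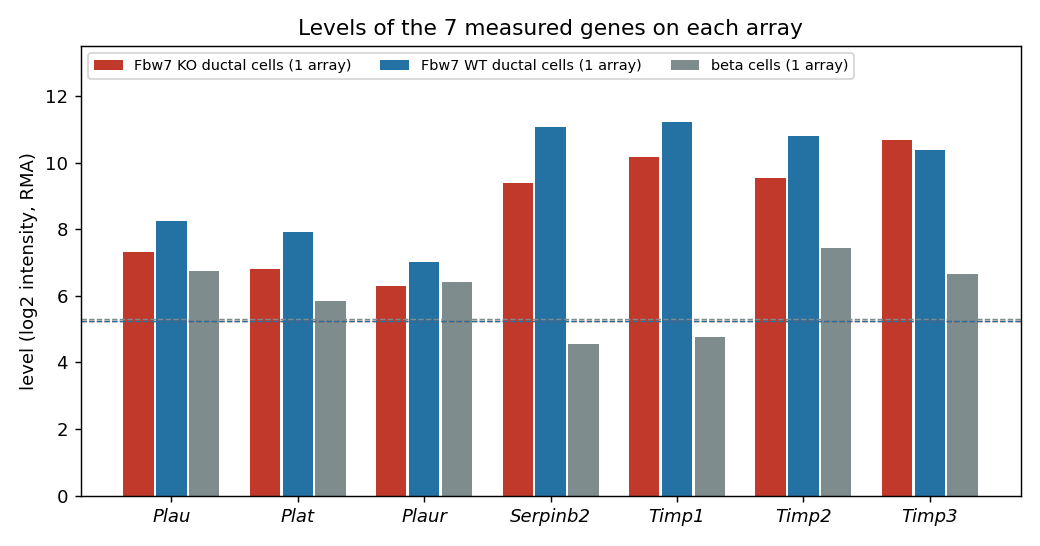
Level (log2 RMA intensity) of the 7 measured genes, with 1 bar for each array: Fbw7 KO ductal, Fbw7 WT ductal and beta cells, left to right in each gene, and dashed lines at the floor of each array. Serpinb2 (4.57) and Timp1 (4.77) lie below the floor in beta cells, and only Timp3 is higher in KO than in WT ductal cells.

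The metalloprotease inhibitors split. Timp1 (gene ID 21857, chromosome X) read 10.17 in KO ductal, 11.21 in WT ductal and 4.77 in beta cells, and it was below the floor in beta cells. It was 2.05-fold lower in KO than in WT ductal cells, a log2 difference of -1.04 that lies just past 2-fold. Against the floor it was at least 29.2-fold higher in KO ductal and at least 59.9-fold higher in WT ductal cells than in beta cells. In RefSeq GRCm38.p6 Timp1 lies within Syn1, a synapsin gene whose promoter is on the opposite strand. The level of Syn1 was 4.52 on both ductal arrays and 4.62 in beta cells, all below the floor.

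Timp2 (gene ID 21858, chromosome 11) read 9.54 in KO ductal, 10.80 in WT ductal and 7.43 in beta cells. It was 2.39-fold lower in KO than in WT ductal cells, and 4.33-fold and 10.3-fold higher in KO and WT ductal cells than in beta cells. Its locus overlaps Cep295nl, which read 6.12 on both ductal arrays and 6.71 in beta cells, so that the overlapping gene did not differ between the ductal arrays and stood on the other side relative to beta cells.

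Timp3 (gene ID 21859, chromosome 10) read 10.68 in KO ductal, 10.39 in WT ductal and 6.67 in beta cells. It was 1.22-fold higher in KO than in WT ductal cells, a log2 difference of 0.29, and 16.1-fold and 13.2-fold higher in KO and WT ductal cells than in beta cells. It was the 1 measured gene of the group with a positive difference between the ductal arrays. The difference was 0.34 after quantile normalization and 0.26 with each array centred on its median, and the other settings could not change it. Timp3 lies within Syn3, another synapsin gene, which read 4.87 on all 3 arrays, below the floor. Timp4, the remaining gene of the family, read below the floor on every array.

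Counted together, 4 of the 7 genes (Serpinb2, Timp2, Plat and Timp1) were at least 2-fold lower in KO than in WT ductal cells and 0 were 2-fold higher. Over all genes above the floor 1.81% were 2-fold lower and 1.43% were 2-fold higher. Of the 7, 6 had a negative and 1 a positive difference, against 35.4% and 16.4% of all genes (the rest were identical), and the median difference was -1.04, against 0 over all 10035 genes. After quantile normalization 3 of the 7 were 2-fold lower and the median was -0.86. Of the 2-fold calls over all genes, 44.2% were higher in KO than in WT ductal cells as deposited, and 60.3% were after quantile normalization. In bulk samples, fewer cells that make a transcript and less of it in each cell cannot be told apart.

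Relative to beta cells, 4 of the 7 genes were at least 2-fold higher in KO ductal cells, where 23.0% of all 11095 genes were. In WT ductal cells 6 of the 7 were, where 25.8% of 11139 genes were. None of the 7 was 2-fold lower than in beta cells in either, where 5.13% of all genes were in KO ductal and 6.37% in WT ductal cells. The median difference was 2.12 for KO ductal and 3.37 for WT ductal cells, against medians over all genes of 0.05 and 0.11. Quantile normalization moved the medians over all genes by -0.16 and -0.20, and centring moved them by 0.17 and 0.20. Quantile normalization moved the members further, to medians of 1.10 for KO ductal and 2.38 for WT ductal cells. After it, 4 of the 7 in KO ductal and 5 in WT ductal cells were at least 2-fold higher than in beta cells. Of the 2-fold calls over all genes, 81.8% were higher in KO ductal and 80.2% higher in WT ductal cells, and after quantile normalization 64.2% and 62.7% were. The 3 comparisons share arrays in pairs and are not independent of each other. Since the members were chosen with these values known, nothing is read from the counts.

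**Figure D2:**
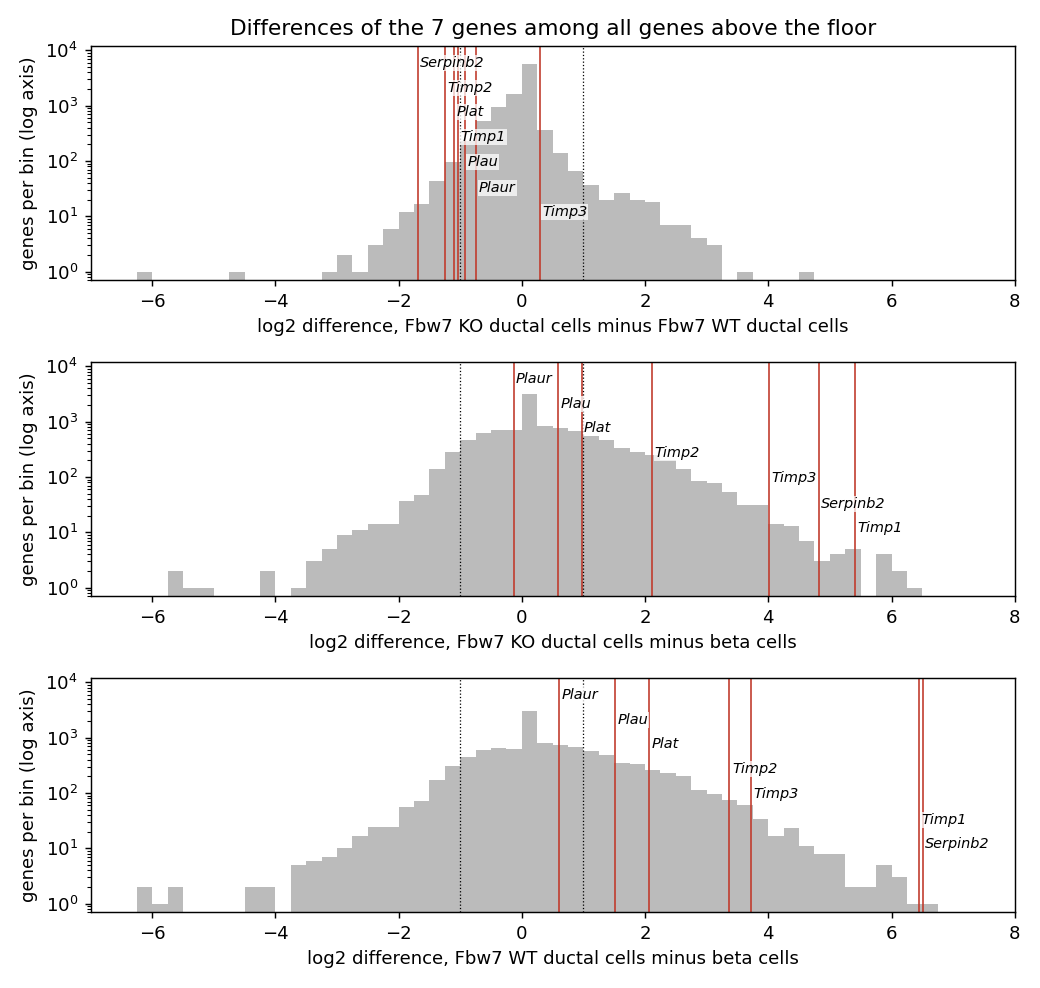
Histograms of log2 differences over all genes above the floor (grey, log axis, 0.25 wide), with red lines at the 7 genes and dotted lines at 2-fold, for KO minus WT ductal cells, KO ductal minus beta cells and WT ductal minus beta cells. Serpinb2, Timp2, Plat and Timp1 lie left of the lower 2-fold line in the top panel, and Serpinb2 and Timp1, which were below the floor in beta cells, lie at the right of the other panels at their measured differences.

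A general list of metalloproteases, some of them targets of these inhibitors, was also mostly lower in KO than in WT ductal cells. Of 31 measured members of that list 15 were above the floor in this comparison; 14 had a negative difference, 1 was identical, 3 were at least 2-fold lower and 0 were 2-fold higher, with a median of -0.55. Over all genes 35.4% were negative, 1.81% were 2-fold lower and 1.43% were 2-fold higher. Mmp19, a secreted metalloprotease, read 6.53 in KO ductal, 8.72 in WT ductal and 4.95 in beta cells, so that it was 4.56-fold lower in KO than in WT ductal cells. Mmp2, gelatinase A, read 5.89 in KO ductal, 8.06 in WT ductal and 6.55 in beta cells and was 4.51-fold lower. Adamts9, a proteoglycan-cleaving protease, was 2.20-fold lower. All 3 genes known to act together on pro-Mmp2 activation, Mmp2, Timp2 and Mmp14, therefore had negative differences, with Mmp14 at 8.37 in KO ductal, 9.12 in WT ductal and 5.87 in beta cells.

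At the other end of the list, Adam12 read the same on all 3 arrays, Adamts1 was at -0.06 and Adamts4 at -0.07. After quantile normalization 14 of the 15 still had negative differences and 2 were 2-fold lower. Relative to beta cells, 9 of 17 metalloproteases were at least 2-fold higher in KO ductal and 10 of 17 in WT ductal cells, where 23.0% and 25.8% of all genes were, and 0 were 2-fold lower in either. Mmp19 (at least 10.7-fold), Adamts5 (9.63-fold) and Mmp14 (9.50-fold) led in WT ductal cells, while Mmp17, Adam8 and Adam12 had the lowest differences (-0.53, -0.21 and 0). In KO ductal cells Adamts5 (7.94-fold), Mmp14 (5.65-fold) and Adamts1 (3.97-fold) led, and Mmp2 (-0.67), Mmp17 (-0.53) and Adamts15 (-0.39) were lowest.

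Other protease inhibitors above the floor were also mostly lower in KO than in WT ductal cells, each by less than 2-fold. Of 17 measured, 14 were above the floor, with a median of -0.26. Of these, 9 had negative and 1 positive differences between KO and WT ductal cells, 4 were identical and 0 were 2-fold apart. Over all genes 35.4% were negative, 16.4% were positive, 1.81% were 2-fold lower and 1.43% were 2-fold higher. Serpina3n, an acute-phase serpin, read 9.84 in KO ductal, 10.59 in WT ductal and 4.77 in beta cells. It was 1.68-fold lower in KO than in WT ductal cells and at least 23.2-fold and 38.9-fold higher in KO and WT ductal cells than in beta cells, against the floor. Serpinb6a was at -0.69 and Serpinf1, the antiangiogenic factor PEDF, at -0.68 between the ductal arrays, while Spint1, an epithelial Kunitz inhibitor, was at 0.22 and Spint2 and Wfdc2 were identical. Slpi, the secretory leukocyte protease inhibitor, was 19.8-fold and 23.7-fold higher in KO and WT ductal cells than in beta cells, and Serping1, the C1 inhibitor, 16.2-fold and 20.9-fold higher.

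Partners of plasmin and of clotting went both ways. Of 15 measured, 9 were above the floor between the ductal arrays, with a median of -0.13 (-0.02 after quantile normalization). Of these, 5 were negative, 2 positive and 2 identical, and 0 were 2-fold apart. Among all genes 35.4% were negative, 16.4% were positive, 1.81% were 2-fold lower and 1.43% were 2-fold higher. Anxa2, which with S100a10 forms a surface receptor for plasminogen and tissue activator, read 9.02 in KO ductal, 9.89 in WT ductal and 6.26 in beta cells and was 1.83-fold lower in KO than in WT ductal cells. S100a10 read 10.39 in KO ductal, 10.51 in WT ductal and 7.91 in beta cells. The protein C receptor gene Procr was at -0.68 and Tfpi2, a Kunitz inhibitor of plasmin, at -0.60, whereas F3, tissue factor, was at 0.36 and Vtn, vitronectin, at 0.35. Plg itself, the plasminogen gene, read below the floor on every array.

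The receptors and clearance genes had a median of -0.07 over 11 genes between the ductal arrays, with 6 negative, 2 positive and 3 identical and 0 of them 2-fold apart. Of all genes, 35.4% were negative, 16.4% were positive, 1.81% were 2-fold lower and 1.43% were 2-fold higher. Lrp1, the endocytic receptor that clears activator and inhibitor complexes, read 8.58 in KO ductal, 9.21 in WT ductal and 7.11 in beta cells and was 1.55-fold lower in KO than in WT ductal cells. Itgb1, an integrin subunit, was at -0.59. Sort1, which encodes sortilin, was at 0.76, and Lrp2, the related receptor megalin, read 9.05 in KO ductal, 8.54 in WT ductal and 4.66 in beta cells, a difference of 0.51 between the ductal arrays. So Lrp1 and Lrp2 stood on opposite sides. Of the 11, 5 were positive and 6 negative after quantile normalization.

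Genes of transcription factors known to act on promoters of this kind differed little between the ductal arrays, as did most genes. Of 13 above the floor 0 were 2-fold apart and 6 were identical, among them Fos, Fosb and Jund, and the median was 0. The median of all genes was 0 as well, 1.81% of genes were 2-fold lower and 1.43% were 2-fold higher. Identical values made up 47.2% of all probe sets, so these counts do not set the list apart. Jun, an AP-1 subunit whose protein is a substrate of Fbw7, read 9.60 in KO ductal, 9.58 in WT ductal and 8.57 in beta cells. Stat3 was the most negative at -0.47, then Rela at -0.19 and Hif1a at -0.18, and Egr1 was at 0.02. The arrays measure transcripts and not the stability or activity of these proteins. Their median relative to beta cells was 0.66 for either ductal array, and -0.03 for KO ductal and -0.18 for WT ductal cells after quantile normalization.

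Cell type markers moved with these genes to different degrees, and their part in the differences was not tested. Of 12 mesenchymal markers, 11 were lower in KO than in WT ductal cells and 5 were at least 2-fold lower as measured (2 after quantile normalization, and 4 with levels raised to the floor), with a median of -0.69. Over all genes above the floor 35.4% had a negative difference, 16.4% a positive one, and 1.81% were 2-fold lower. The summed intensity of the mesenchymal markers on the linear scale was 7652 in KO ductal, 11812 in WT ductal and 2230 in beta cells. Pdgfrb was below the floor in KO ductal, Rgs5 in WT ductal and Pdgfra in beta cells. Of the 15 mesothelial markers, 9 were higher and 6 lower in KO than in WT ductal cells, with a median of 0.04 and 0 of them 2-fold apart, and their sum was 16119 in KO ductal, 16390 in WT ductal and 795.1 in beta cells. Among them Aldh1a2 (-0.74) and Lrrn4 (-0.37) were the most negative, and Efemp1 (0.56) and Krt19 (0.41), which is also on the ductal list, the most positive. All 15 were at least 2-fold higher on both ductal arrays than in beta cells. Of all genes 23.0% were so in KO ductal and 25.8% in WT ductal cells.

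Of 12 leukocyte markers 4 were above the floor on the ductal arrays, 3 of them negative between KO and WT ductal cells (the median of the 4 was -0.48), and Ptprc, the pan-leukocyte phosphatase gene, Lyz2 and Adgre1 were below it on both. Cd74 read 7.77 in KO ductal and 8.53 in WT ductal cells, and H2-Ab1 read 6.64 and 7.67. H2-Ab1 was 2.05-fold lower in KO than in WT ductal cells. It was the 1 leukocyte marker of the 4 at least 2-fold lower, where 1.81% of all genes were. The leukocyte markers summed to 551 in KO ductal, 807 in WT ductal and 1186 in beta cells. Endothelial markers had a median of 0 over 4 genes, with Cdh5 and Pecam1 below the floor on both ductal arrays and sums of 1097 in KO ductal, 1682 in WT ductal and 786 in beta cells. Cd34, at 9.54 in KO ductal, 10.39 in WT ductal and 6.90 in beta cells, had the highest level of these markers on the ductal arrays. It makes up most of the endothelial sums there, so those sums mainly follow 1 gene. Cldn5, Egfl7, Emcn and Tie1 were also below the floor on both ductal arrays. Relative to beta cells the endothelial markers were mostly lower, with medians of -0.81 in KO ductal and -0.82 in WT ductal cells over 9 genes, 6 and 7 of them negative. Ductal markers went the other way: all 12 above the floor were higher in KO than in WT ductal cells, with a median of 1.43 and sums of 6469 in KO ductal, 2848 in WT ductal and 1191 in beta cells. All 9 acinar markers above the floor were higher in KO than in WT ductal cells as well, with a median of 1.86 and sums of 26560 in KO ductal, 10967 in WT ductal and 35758 in beta cells. Over all genes above the floor 16.4% had a positive difference between the ductal arrays.

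**Figure D3:**
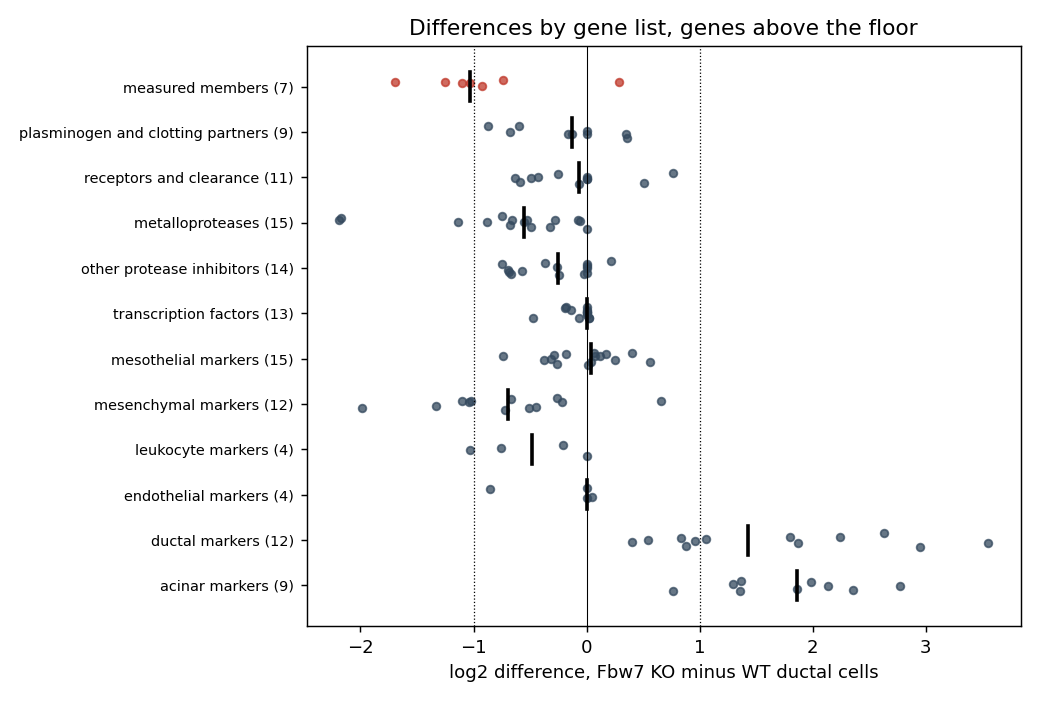
Log2 difference of KO minus WT ductal cells for each gene above the floor (points), by gene list, with the median of each list as a black bar, the number of genes in brackets and dotted lines at 2-fold. The measured members (median -1.04), the metalloproteases (-0.55) and the mesenchymal markers (-0.69) lie mostly left of 0, the mesothelial markers (0.04) around 0, and the ductal (1.43) and acinar markers (1.86) to the right.

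The genes with the most similar pattern were found for the 6 members that varied at least 2-fold over the arrays. Likeness was the Euclidean distance between the pair of log2 differences, KO minus WT ductal and WT ductal minus beta, over 10732 other genes and 3 arrays, so that many genes can lie close by. Serpinb2 and Timp1 were each other's nearest gene, at a distance of 0.66, followed for both by Serpina3n (1.17 from Serpinb2 and 0.68 from Timp1) and by the mesothelial marker Lrrn4 (1.36 and 0.72). All 4 of these genes were below the floor in beta cells, so these distances use measured differences against levels at background and their order is not firm. Nearest to Timp2 were Ces2g, the transglutaminase gene Tgm2 and the phospholipase gene Pla2g4a (0.10 to 0.21), and nearest to Timp3 were the proteasome subunit gene Psmb5, Ncoa4 and Ifitm2 (0.12 to 0.15). Plat lay closest to the alarmin gene Il33, Tmtc2 and Fkbp7, each at 0.06, and Plau to Serinc5, Saraf and the proton pump subunit gene Atp6v0d1 (0.02 to 0.05).

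**Figure D4:**
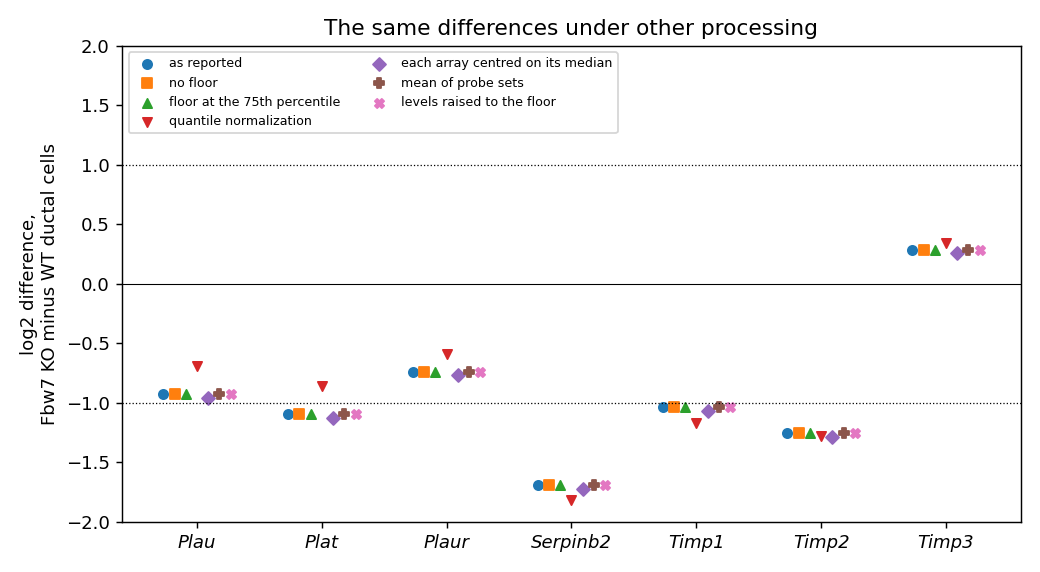
Log2 difference of KO minus WT ductal cells for each of the 7 genes under 7 ways of processing (symbols, as in the legend), with dotted lines at 2-fold. Every symbol of the 6 lower genes lies below 0 and every symbol of Timp3 above 0, and Plat crosses the 2-fold line with quantile normalization. Only quantile normalization and centring could change these differences, and the other symbols repeat the value as reported.

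Across the ways of processing tried, the difference between the ductal arrays ranged from -1.82 to -1.69 for Serpinb2, from -1.29 to -1.25 for Timp2, from -1.17 to -1.04 for Timp1 and from -1.13 to -0.86 for Plat. It ranged from -0.96 to -0.69 for Plau and from -0.77 to -0.59 for Plaur. The spread comes from quantile normalization and centring alone, as the other settings left each of these values as reported. The plot of the same differences under other processing shows that quantile normalization moved the activators and the receptor toward 0, and moved Serpinb2 and Timp1 away from it.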

How the data were processed

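The authors deposited log2 intensities of 35556 probe sets on 3 arrays, made with RMA per the submitters' processing notes; its version, and whether the arrays were normalized as 1 set, is not given in the sources used. The platform annotation gave 1 gene for 21789 probe sets, several for 1621 and none for 12146, and 21698 of the first matched RefSeq (GRCm38.p6) by gene ID. The highest probe set by mean was used for a gene. A gene entered a comparison where the higher of its levels was above the floor of its array, the median of the probe sets assigned to 1 gene. Identical values were common: 47.2% of probe sets read the same on both ductal arrays. Differences were taken on the log2 scale and counted at 2-fold; where the lower level was below the floor, a fold is a lower bound against the floor. The steps were tested on simulated data. The members and lists were chosen with earlier results of these data known. Named list genes are the 3 highest and 3 lowest differences of each list, those chosen for a role or a level being named after their values were seen. Python 3.11.15, numpy 2.4.6, pandas 2.3.3 and matplotlib 3.10.9 were used.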

Additional observations from a re-analysis of the deposited data

How the results depend on the processing

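With 1 array a group no array could be left out, and no paired analysis was possible because each group has 1 sample. Of 126 values of single members under alternatives, 120 kept their sign and their side of 2-fold, 6 did not, and 0 of those at least 2-fold apart changed sign. The 6 were Plat between the ductal arrays (-0.86), Plau in KO (-0.12) and WT ductal cells (0.57) and Plaur in WT ductal cells (-0.02) relative to beta cells after quantile normalization, and Plat (1.15) and Plaur (0.04) in KO ductal cells relative to beta cells with arrays centred; the cause was not tested. Many of the 126 values could not change. Each measured member had 1 probe set, so averaging probe sets altered nothing, and the choice of floor only decided which genes entered. Raising levels to the floor altered only Serpinb2 and Timp1 relative to beta cells. Quantile normalization and centring were the settings that could move every value. Thresholds moved counts by construction. At 4-fold 0 members were apart between the ductal arrays, and over all genes 56 were apart between KO and WT ductal cells, 978 between KO ductal and beta cells and 1253 between WT ductal and beta cells. At 1.5-fold these were 1010, 5154 and 5583, against 326, 3121 and 3585 at 2-fold. Raising levels below the floor to it, chosen after seeing the data, left the member counts at 4, 4 and 6, while genes at least 2-fold lower than in beta cells went to 258 in place of 569 for KO ductal and to 327 in place of 710 for WT ductal cells. Levels near the floor leave the least room to see a difference.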

Other observations

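Of the 31 measured metalloproteases, 14 read below the floor on every array, several of them known from tissue remodelling and inflammation. Among them were the stromelysins Mmp3 and Mmp10, the matrilysin Mmp7, the neutrophil collagenase Mmp8, the gelatinase Mmp9 and the macrophage elastase Mmp12. Mmp9 read 4.27 in KO ductal, 4.45 in WT ductal and 4.82 in beta cells, and Mmp3 read 4.01 in KO ductal, 4.10 in WT ductal and 4.25 in beta cells. The gelatinase above the floor was Mmp2. These genes were chosen for their level after it had been seen. The floor is a median over probe sets of each array, so many genes read below it by construction. The share of all genes below it on every array was not computed, so nothing is read from the count of 14.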
